A study of Mus musculus with 6 samples.

Results

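Interferon-induced genes and the genes of interferon signalling were compared between livers of Chga knockout and wild-type mice. Chga encodes chromogranin A, an acidic protein stored with hormones in the secretory granules of endocrine and nerve cells. The set holds 45 genes chosen by name, with earlier results of these data known. They are the receptors for interferon, the transcription factors below them, and the antiviral, GTPase and immunoproteasome genes that interferon induces. Each gene was read from the probe sets annotated to its symbol alone, by the brightest of them over all arrays. A probe set is the group of short array probes that reports 1 transcript. In all, 40 of the 45 genes had such a probe set, out of 12393 genes on the array, and 34 of these lay in the upper 60% of probe sets by mean signal and were tested, out of 8047 tested genes. The other 6 (Ifit2, Oasl2, Mx1, Mx2, Dhx58 and Gbp2) were dim and are given by their values, with no test. Isg15 and Tgtp1 were measured only by probe sets shared with another gene and are given no value, and Ddx58, Xaf1 and Ifi44 were not analysed here.

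The samples were livers of male mice aged 12 weeks, 3 Chga knockout and 3 wild type, each mouse on 1 Affymetrix array. The labels call the mice knockout and wild type and describe no other allele or treatment. They do not say which part of Chga was removed, and give no genetic background, feeding state or hour of dissection. RNA came from liver tissue, so that hepatocytes, Kupffer cells and endothelium were measured together.

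Interferons are cytokines that cells release on sensing viral or bacterial nucleic acid. Type I interferons bind IFNAR1 and IFNAR2, and the kinases JAK1 and TYK2 then activate the factor ISGF3, which holds STAT2 and IRF9 and binds the interferon-stimulated response element in the promoters of antiviral genes. Interferon gamma, the type II interferon, acts through IFNGR1 and IFNGR2 on promoters with the gamma-activated site, and it is a strong inducer of immunity-related GTPases and of the immunoproteasome. Healthy liver holds a low, standing level of these transcripts in hepatocytes and in Kupffer cells, the resident macrophages.

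Among the antiviral genes, Ifit3 and Bst2 were lower in the knockout at an unadjusted p under 0.05 (limma), and neither passed after adjustment. The promoter stretches below show the 2 kinds of element in these and in genes near the wild-type level or with overlapping groups. Each is written 5′ to 3′ on the gene's strand and ends before the annotated start, with every match to GAAA, then any 2 bases, then GAAA, on either strand, in capitals. That pattern is the core of the interferon-stimulated response element. The sequences and gene starts are those of RefSeq on GRCm38.p6. For Irf1 the capitals mark TTCNNNGAA, the core of the gamma-activated site.
Ifit3: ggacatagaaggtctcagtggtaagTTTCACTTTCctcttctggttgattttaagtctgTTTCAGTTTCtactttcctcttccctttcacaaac
Bst2: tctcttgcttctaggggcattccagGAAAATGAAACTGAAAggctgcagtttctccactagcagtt
Ifit1: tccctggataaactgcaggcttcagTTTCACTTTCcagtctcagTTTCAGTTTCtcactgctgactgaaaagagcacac
Rsad2: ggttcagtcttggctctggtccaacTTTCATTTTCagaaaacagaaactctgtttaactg
Oas1a: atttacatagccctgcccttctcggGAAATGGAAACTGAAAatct
Igtp: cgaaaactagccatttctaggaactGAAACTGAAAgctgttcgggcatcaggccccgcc
Irgm1: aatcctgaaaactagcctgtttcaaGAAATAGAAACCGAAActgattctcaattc
Irf1: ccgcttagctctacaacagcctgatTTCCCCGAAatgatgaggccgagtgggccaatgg

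The Ifit3 stretch lies at chr19:34583348-34583441 on the plus strand, that of Bst2 at chr8:71537562-71537627 on the minus strand, and that of Ifit1 at chr19:34640760-34640838 on the plus strand. The Rsad2 stretch lies at chr12:26456538-26456597 (minus), Oas1a at chr5:120907526-120907570 (minus), Igtp at chr11:58199497-58199555 (plus), Irgm1 at chr11:48871421-48871475 (minus) and Irf1 at chr11:53769899-53769957 (plus). Bst2, Oas1a and Irgm1 each hold 2 overlapping matches, and Ifit3 and Ifit1 each hold 2 separate ones. All lie upstream of the annotated start of the gene.

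Array quality bears on the dim genes. The background level, taken as the 95th percentile of 27 dim bacterial control probe sets, ran from 151 in wild-type replicate 2 to 322 in knockout replicate 2, and 64.4% to 76.9% of probe sets lay above it. Arrays correlated with their own group at 0.964 or more, and with the other group at up to 0.967 (Pearson's r across the tested probe sets, which are not independent). Hepatocyte transcripts such as Alb, the serum albumin gene, were bright on every array, from 161495 to 210871 signal units. Chga read 61.5, 44.5 and 231 in the knockout and 167, 185 and 42.5 in the wild type, so that its dim probe set does not check the group labels. Signals are linear and in arbitrary units. Differences are knockout minus wild type on log2(signal + 16), which understates those of dim genes, and ± after a difference is the standard error of the fit with n = 3 per group.

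The comparison asks whether the resting interferon programme of the liver differs without Chga. The 34 tested genes lay mostly a little below wild type: 23 were lower and 11 higher, with a median difference of -0.18, beside 52.7% of all tested genes lower and a median of -0.015. With limma and Benjamini-Hochberg adjustment over all 13576 tested probe sets, 0 of the 34 genes passed at 0.05, where 0.423% of all genes and 0.376% of probe sets did, and the smallest adjusted p among them was 0.303, for Bst2. At an unadjusted p under 0.05, 6 genes were lower (17.6%, against a background of 5.69% of all genes) and 0 were higher (background 4.57%). These 6 were Bst2, Ifit3, Ifih1, Iigp1, Psmb10 and Ifi27l2a, and apart from Ifi27l2a their differences lay between 1.26-fold and 1.47-fold. Every knockout array lay below every wild-type array for 5 genes (14.7%, against 7.84% of all genes), and above for 1 gene (2.94%, against 7.77%). The count of 6 rested partly on single animals. Without wild-type replicate 2 it was 2 of 34, Bst2 and Psmb10, beside 3.91% of all genes in that fit.

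**Figure D1:**
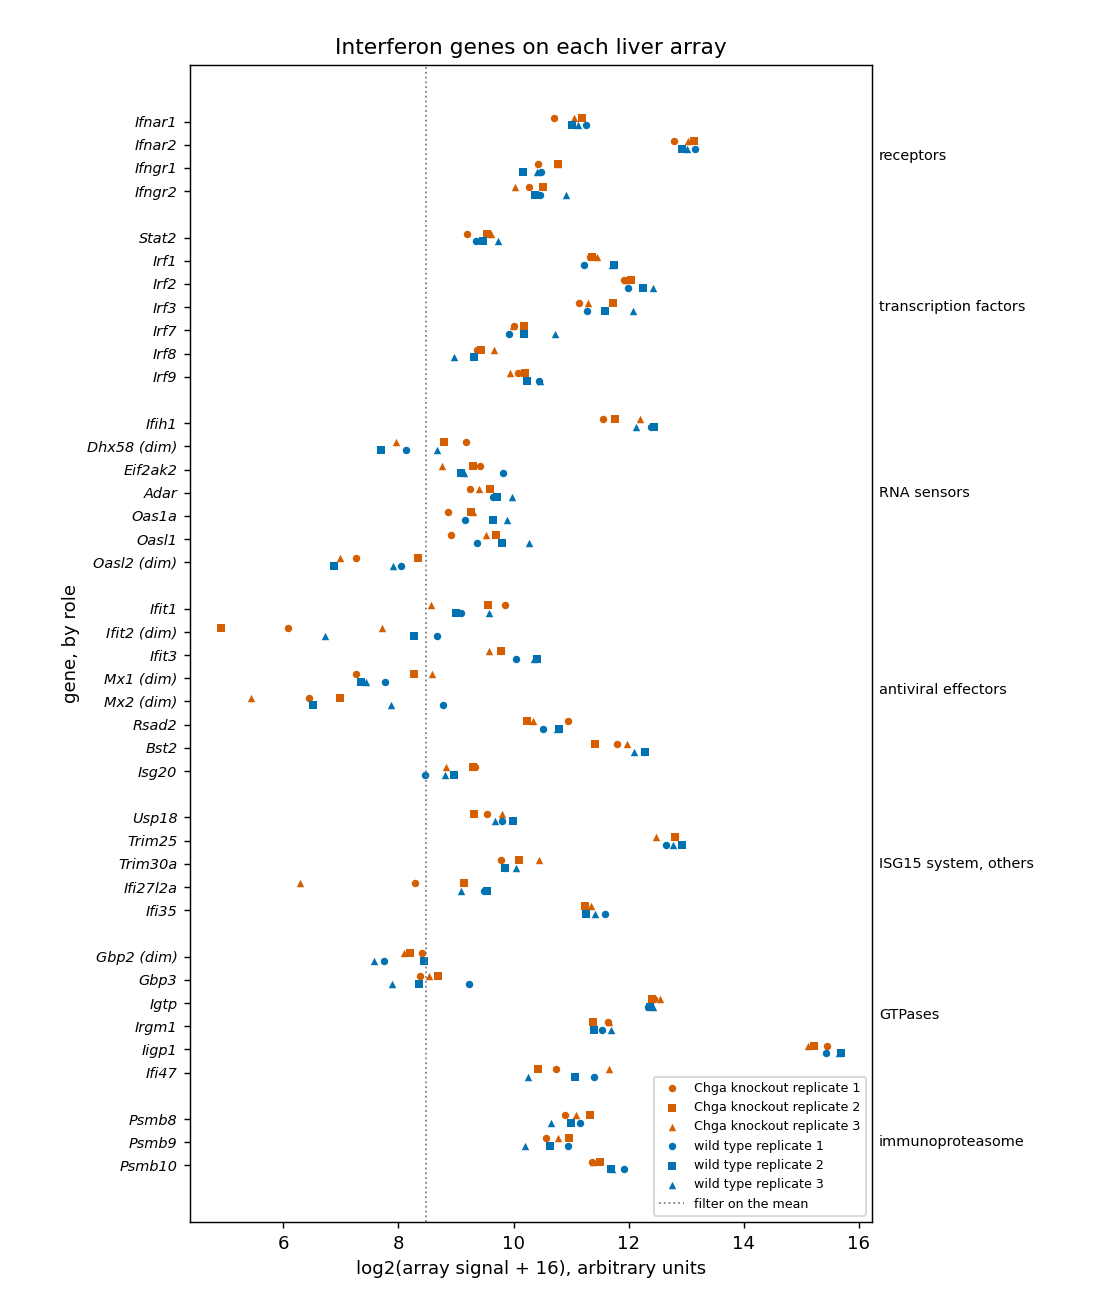
Signals of the 40 measured interferon genes on each of the 6 liver arrays, as log2(signal + 16) on the horizontal axis, with genes on the vertical axis by role; orange marks are knockout, blue marks wild type, and the mark's shape is the replicate. The dotted line is the filter on the mean over 6 arrays: the 6 dim genes scatter around and below it, and orange and blue marks overlap for most genes.

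Among the receptors, the type I receptor chains Ifnar1 and Ifnar2 were close between groups. Ifnar2, the chain that binds interferon with high affinity, read 7063, 9035 and 8408 in the knockout and 9137, 7760 and 8216 in the wild type, a difference of -0.039 ± 0.12. Ifnar1 read 2025 ± 341 (SD, n = 3) in the knockout and 2229 ± 192 in the wild type, a difference of -0.15 ± 0.17. By these probe sets the groups overlapped for both genes, and the 95% intervals of both differences excluded a 1.5-fold change in either direction. A second, dim probe set of Ifnar2 stood at 1.11 ± 0.57.

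The 2 chains of the interferon gamma receptor differed in sign. Ifngr1, the ligand-binding chain, read 1361, 1743 and 1734 in the knockout and 1417, 1129 and 1349 in the wild type, a difference of 0.31 ± 0.18 (limma, adjusted p = 0.609). Ifngr2, the signalling partner, read 1223, 1450 and 1024 against 1387, 1312 and 1911, a difference of -0.31 ± 0.21 (adjusted p = 0.663). Both pairs of groups overlapped, and the high Ifngr2 mean of the wild type came largely from replicate 3.

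Of the transcription factors, 6 of 7 lay below wild type and 0 passed. Irf9, the DNA-binding part of ISGF3, had groups that did not overlap: it read 1061, 1166 and 960 in the knockout and 1368, 1192 and 1400 in the wild type, a difference of -0.31 ± 0.18 (adjusted p = 0.607). The highest knockout value, 1166, was just under the lowest wild-type value, 1192. Irf2, which can hold interferon promoters in check, was at -0.25 ± 0.14, and Irf1, an activator induced by interferon gamma, at -0.18 ± 0.16. Irf3, the factor that switches on the interferon beta gene, was at -0.26 ± 0.22, and Irf7, which amplifies interferon alpha production, at -0.22 ± 0.22. For Irf7 the wild-type mean of 1263 ± 375 was carried by replicate 3, at 1682, beside 957 and 1149 in the other two. Without that animal the difference was 0.0056.

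Irf8, a factor of macrophages and dendritic cells, went the other way by its brightest probe set, at 646, 679 and 790 in the knockout and 614, 617 and 485 in the wild type. Every knockout array lay above every wild-type array, with a difference of 0.30 ± 0.25 (adjusted p = 0.736). The other tested probe set of Irf8 lay lower in the knockout, at -0.45 ± 0.33, so the direction for this gene depends on the probe set.

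Stat2, a part of ISGF3, was also split between probe sets. Its brightest read 572, 728 and 768 in the knockout and 633, 695 and 838 in the wild type, a difference of -0.067 ± 0.24. Its other probe set read 652, 513 and 791 against 392, 300 and 490, a difference of 0.71 ± 0.32 with an unadjusted p of 0.048 and an adjusted p of 0.498 (limma). The second probe set had knockout values above every wild-type value, and the first had overlapping groups.

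The RNA sensor group, in which the editing enzyme Adar is counted, gave the most uniform direction of the gene groups. All 5 tested genes were lower, with a median of -0.42, and 0 passed. Ifih1 encodes MDA5, a helicase that recognises long double-stranded RNA. It read 2988, 3469 and 4697 in the knockout and 5358, 5538 and 4468 in the wild type. The groups overlapped only through knockout replicate 3 and wild-type replicate 3, and the difference was -0.48 ± 0.17 (unadjusted p = 0.0176, adjusted p = 0.374). Without knockout replicate 3 the adjusted p was 0.129, the lowest for this gene in any setting tried, and without wild-type replicate 2 it was 0.692.

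Adar, the editing enzyme that marks cellular double-stranded RNA as self, read 592, 755 and 657 in the knockout and 779, 827 and 992 in the wild type. The groups did not overlap, and the difference was -0.37 ± 0.23 (adjusted p = 0.635). Oas1a, which makes the messenger that activates RNase L, read 451, 595 and 616 against 555, 786 and 932, a difference of -0.42 ± 0.28. Oasl1, a relative of it, was at -0.44 ± 0.30, with 664 ± 178 in the knockout and 911 ± 286 in the wild type. Eif2ak2, which encodes the kinase PKR that halts translation, was at -0.20 ± 0.31, and from -0.33 to 0.037 with 1 array left out. For Oas1a and Oasl1 knockout replicate 1 was the lowest array and wild-type replicate 3 the highest, and the groups overlapped. Over the tested sensors the median deviation from each gene's own mean was -0.49 on knockout replicate 1 and 0.38 on wild-type replicate 3.

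By their brightest probe sets the dim sensors followed no single direction. Dhx58, which encodes the regulator LGP2, read 563, 425 and 232 in the knockout and 266, 191 and 389 in the wild type by its brightest probe set. Its other probe sets, also dim, lay lower in the knockout, at -0.74 ± 0.49 and -0.996 ± 0.76. Oasl2 read 138, 308 and 111 against 249, 102 and 225, with 0 of 3 knockout and 2 of 3 wild-type arrays above background.

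**Figure D2:**
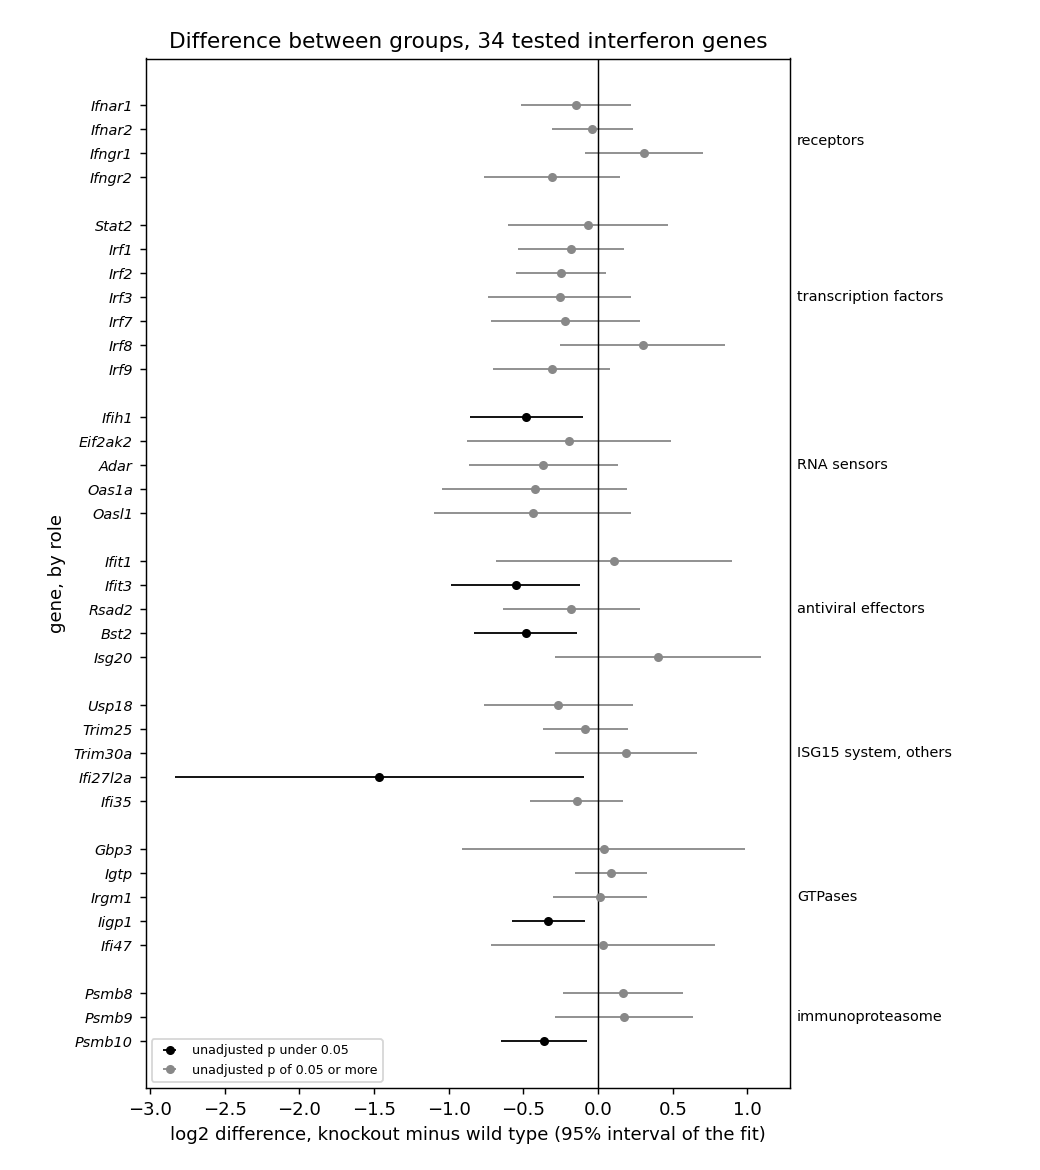
Difference between knockout and wild type for each of the 34 tested interferon genes, on the log2 scale, with the 95% interval of the limma fit and genes on the vertical axis by role. The 6 genes in black, all to the left of 0, have an unadjusted p under 0.05; the 5 RNA sensors all lie to the left, while most GTPases lie close to 0.

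Antiviral effectors were mixed. Ifit3, a protein of the complex that binds foreign RNA ends, read 869, 864 and 750 in the knockout and 1037, 1342 and 1301 in the wild type. The groups did not overlap, with means of 828 ± 67.1 and 1227 ± 165 (SD, n = 3), and the difference was -0.55 ± 0.20 (unadjusted p = 0.0174, adjusted p = 0.370). Ifit1, its neighbour in the same gene cluster, read 912, 735 and 363 against 531, 494 and 744, a difference of 0.11 ± 0.36. Ifit1 was highest on knockout replicate 1 and lowest on knockout replicate 3, so its knockout values spanned those of the wild type.

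Bst2 encodes tetherin, a membrane protein that holds budding virus particles on the cell. It read 3565, 2711 and 4026 in the knockout and 4945, 4967 and 4367 in the wild type. The groups did not overlap, and the difference was -0.49 ± 0.16 (unadjusted p = 0.0104, adjusted p = 0.303). It was the gene of the 34 with the smallest p, and under all 16 alternatives run it stayed at an unadjusted p under 0.05, with adjusted p-values from 0.189 to 0.613.

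Rsad2, which encodes viperin, an enzyme that makes a chain-terminating nucleotide, read 1954, 1190 and 1284 in the knockout and 1452, 1759 and 1703 in the wild type, a difference of -0.18 ± 0.21. Its 3 probe sets ran from -0.18 to 0.34. Isg20, an exonuclease, was the tested gene farthest above wild type, at 0.40 ± 0.31, with 628, 613 and 438 against 338, 484 and 433 (adjusted p = 0.710). Its groups overlapped through knockout replicate 3. As with Ifit1 and Rsad2, the highest Isg20 value came from knockout replicate 1.

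The other antiviral effectors were dim. Ifit2 read 52.0, 14.2 and 195 in the knockout and 393, 293 and 89.1 in the wild type, with 1 of 3 and 2 of 3 arrays above background. Mx2, a dynamin-like GTPase, read 71.0, 111 and 27.4 against 422, 75.6 and 219, with 0 of 3 and 2 of 3 above background. Mx1, its relative, which is defective in many inbred mouse strains, read 138, 294 and 369 against 201, 148 and 157, with 1 of 3 and 0 of 3 above background. For Mx1 and Mx2 most of the arrays lay at background, and for Ifit2 3 of 6 did. No fold is given for these genes.

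In the ISG15 system and among other regulators, 4 of 5 tested genes lay below wild type and 0 passed. Usp18, the protease that removes ISG15 and damps the type I receptor, read 732, 619 and 880 in the knockout and 876, 996 and 807 in the wild type, a difference of -0.27 ± 0.23. Trim25, a ubiquitin ligase that acts on the sensor RIG-I, was at -0.085 ± 0.13, and Ifi35 at -0.14 ± 0.14. Trim30a was at 0.19 ± 0.22, with the 3 knockout arrays at 863, 1081 and 1368. The groups overlapped for each of these 4 genes.

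Ifi27l2a, a small membrane protein gene of the ISG12 family, had the largest difference of the tested set and also the widest spread. It read 295, 551 and 62.4 in the knockout and 700, 726 and 531 in the wild type, a difference of -1.47 ± 0.62 (unadjusted p = 0.0381, adjusted p = 0.470). Knockout replicate 3 lay below background and knockout replicate 2 within the wild-type range. Without knockout replicate 3 the difference was -0.66, so that its size rests largely on 1 array.

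The GTPases had the median nearest to 0 of the gene groups, at 0.031: 4 of 5 tested genes lay above it by at most 0.088, and 0 passed. Igtp, also called Irgm3, read 5537, 5395 and 5987 in the knockout and 5156, 5283 and 5463 in the wild type, a difference of 0.088 ± 0.11. Irgm1, a regulator of the same family, read 3163, 2640 and 3221 against 2963, 2687 and 3304, a difference of 0.011 ± 0.14. For both, the 95% interval excluded a 1.5-fold change in either direction. Ifi47, also called Irg-47, ranged more widely, from 1355 to 3229 in the knockout and from 1202 to 2682 in the wild type, with a difference of 0.031 ± 0.34.

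Iigp1 was the one tested GTPase below wild type. It encodes a GTPase that attacks the vacuoles of intracellular parasites, and its probe set stood at the 98.2nd percentile of all probe sets. It read 44840, 38191 and 35365 in the knockout and 44179, 52970 and 51630 in the wild type, a difference of -0.33 ± 0.11 (unadjusted p = 0.0121, adjusted p = 0.321). Its second probe set gave -0.45 ± 0.19, with an unadjusted p of 0.0405 and an adjusted p of 0.482. By either probe set knockout replicate 1 and wild-type replicate 1 stood in reverse order to the group means and the groups overlapped.

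Guanylate-binding proteins coat pathogen vacuoles, and those in the set, Gbp2 and Gbp3, were faint here. Their relatives Gbp7 and Gbp6, outside the set, were brighter, at the 71.4th and 57.3rd percentiles of all probe sets. Gbp3 read 316, 398 and 352 in the knockout and 586, 313 and 220 in the wild type, a difference of 0.038 ± 0.43. Gbp2 was dim, at 326, 279 and 257 against 198, 334 and 175, with 2 of 3 arrays above background in each group.

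**Figure D3:**
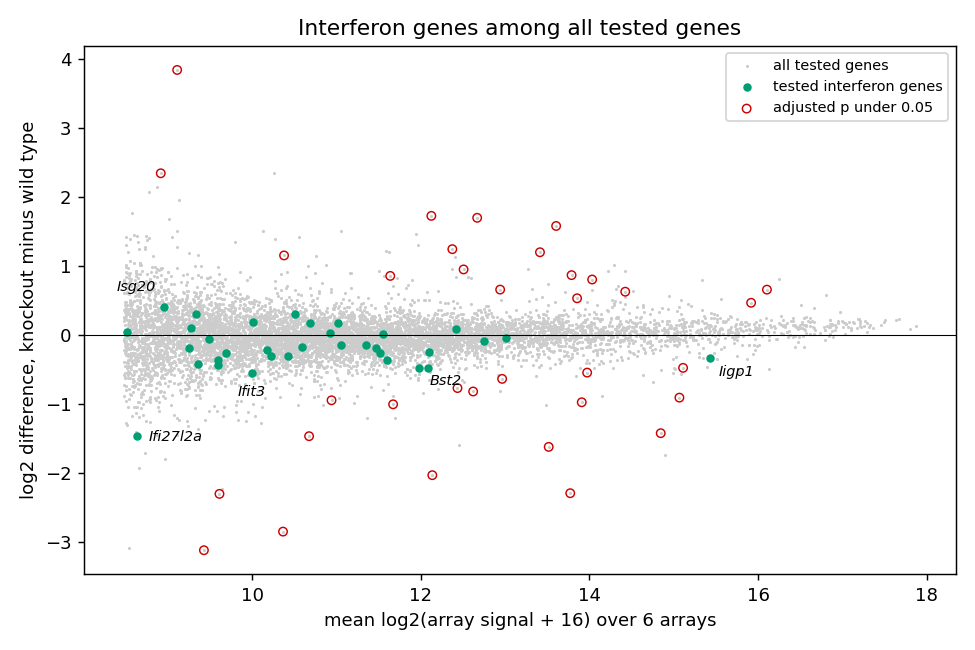
Difference between knockout and wild type against mean log2 signal for all 8047 tested genes (grey), with the 34 interferon genes in green and genes past an adjusted p of 0.05 ringed in red. No green point is ringed; Ifi27l2a, at -1.47, lies at the dim end where grey points scatter most, and Iigp1, at -0.33, at the bright end.

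The immunoproteasome subunits replace catalytic subunits of the standard proteasome and shape peptides for class I presentation. Psmb10 read 2609, 2873 and 2655 in the knockout and 3865, 3308 and 3332 in the wild type. The groups did not overlap, and the difference was -0.36 ± 0.13 (unadjusted p = 0.0179, adjusted p = 0.374). The subunits Psmb8 and Psmb9, which lie in the class II region of the major histocompatibility complex on chromosome 17, were not lower: Psmb8 was at 0.17 ± 0.18 and Psmb9 at 0.17 ± 0.21, both with overlapping groups. Both were lowest on wild-type replicate 3, at 1584 and 1162. The standard subunits that they replace, Psmb5, Psmb6 and Psmb7, were at -0.062 ± 0.11, 0.0071 ± 0.10 and -0.0077 ± 0.079.

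Several genes were measured by more than 1 probe set, 12 of the 40, which gives a view of how firmly each value is set. The probe sets of Iigp1, Eif2ak2, Trim25, Trim30a and Ifngr2 shared a sign within each gene. Those of Ifnar2, Stat2, Irf3, Irf8, Rsad2 and Dhx58 did not. The second probe set of Ifnar2 was dim and stood at 1.11 ± 0.57, and the dimmest of Irf3 at 0.99 ± 0.70. Both probe sets of Gbp2 were dim, at 0.31 ± 0.49 and 1.41 ± 0.68.

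**Figure D4:**
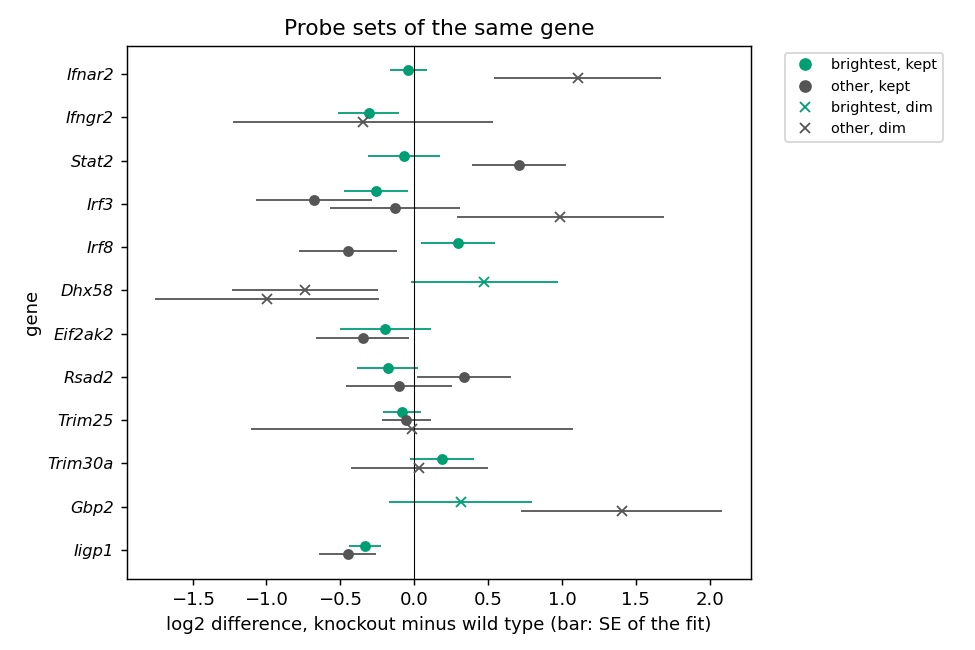
Difference between knockout and wild type for every probe set of the 12 interferon genes with more than 1, on the log2 scale, with the standard error of the fit as bars; green is the brightest probe set of a gene and crosses are dim ones. Crosses reach farthest from 0 and carry the longest bars, and the 2 probe sets of Stat2 and of Irf8 stand on opposite sides of 0.

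Single arrays stood apart within each group. Knockout replicate 1 was the lowest array for 11 of 34 genes (32.4%, against 17.4% of all genes), and wild-type replicate 3 the highest for 10 (29.4%, against 19.1%). The median deviation of the 34 genes from their own means was -0.15, 0.027 and -0.038 in knockout replicates 1 to 3 and 0.016, 0.015 and 0.12 in wild-type replicates 1 to 3. On this summary knockout replicate 2 lay above wild-type replicates 1 and 2, so the groups overlapped. Within knockout replicate 1 the gene groups parted: the tested sensors had a median deviation of -0.49 and the tested antiviral effectors of 0.35.

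**Figure D5:**
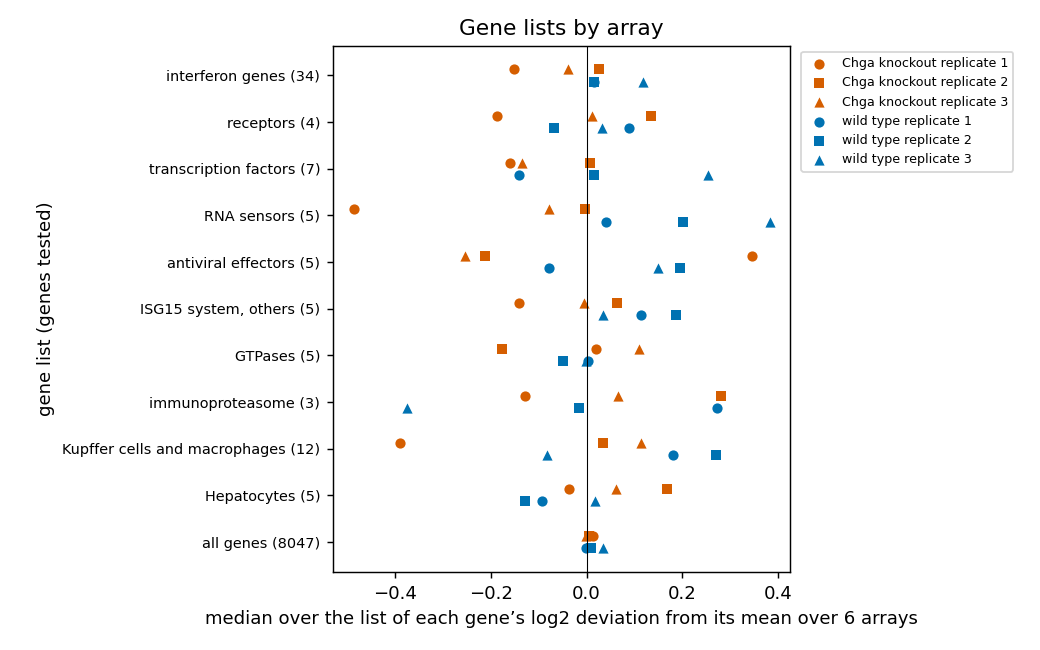
Median over each gene list of the log2 deviation of each gene from its mean over the 6 arrays, for the interferon genes together, for their 7 roles, for 2 cell type lists and for all tested genes; orange marks are knockout, blue marks wild type, and the shape is the replicate. On knockout replicate 1 the RNA sensors stand at -0.49, the macrophage markers at -0.39 and the antiviral effectors at 0.35.

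Markers of macrophages also lay mostly below wild type. Of 14 listed Kupffer cell and macrophage markers, 12 were tested and 11 of these were lower in the knockout, beside 52.7% of all tested genes. Their median was -0.23, beside -0.015 for all tested genes, and 0 passed. At an unadjusted p under 0.05 (limma), 0 were lower (background 5.69%) and 0 higher (background 4.57%). The marker signals of the 12 genes summed to between 24927 and 35442 in the knockout and between 29440 and 38140 in the wild type, with the lowest sum on knockout replicate 1. Every knockout array lay below every wild-type array for 2 of the 12 (background 7.84% of all genes): Cd68, a lysosomal protein, at -1.40 ± 0.68 (adjusted p = 0.537), and C1qc, a chain of complement C1q, at -0.37 ± 0.21 (adjusted p = 0.607). Cd68 read 403, 49.3 and 507 in the knockout, with knockout replicate 2 below background, and 708, 652 and 530 in the wild type. Csf1r, the receptor for macrophage colony-stimulating factor, was at -0.33 ± 0.23 and Vsig4, a complement receptor of Kupffer cells, at -0.31 ± 0.18, both with overlapping groups. The defining markers Clec4f, a Kupffer cell lectin, and Adgre1, the F4/80 antigen, were at 0.0017 ± 0.21 and -0.13 ± 0.18, and Marco was at background on all 6 arrays. Without knockout replicate 1, 8 of the 12 markers were lower, with a median of -0.15, and 23 of the 34 interferon genes, with a median of -0.16. The part of the macrophage markers in the interferon values was not tested, and in whole liver fewer cells of a type and less RNA per cell cannot be told apart. All 9 measured lymphocyte markers were dim, among them Cd3e and Cd4, 3 of 5 measured neutrophil markers were tested with a median of -0.030, and of the markers of plasmacytoid dendritic cells, which make type I interferon, only Tcf4 was tested, at 0.018 ± 0.17. The 5 tested endothelial markers had a median of -0.035 and the 5 tested hepatocyte markers one of 0.14, and 0 of either passed.

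Of 85 other listed genes of the pathway, 61 had a probe set of their own and 44 were tested, with 28 lower, 16 higher, a median of -0.058, and 0 past the adjusted threshold in limma. At an unadjusted p under 0.05, 4 were lower (background 5.69%) and 1 higher (background 4.57%). The lower ones were Pml, the scaffold of nuclear bodies (-1.20 ± 0.36, adjusted p = 0.256), Plscr1 (-0.49 ± 0.19), the secreted glycoprotein Lgals3bp (-0.55 ± 0.22) and Ifitm3, which blocks virus entry (-0.27 ± 0.11). Pml read 601, 310 and 225 in the knockout, the last 2 near background, and 819, 926 and 730 in the wild type. The higher one was Ube2l6, the enzyme that conjugates ISG15, with 1764, 1526 and 1720 in the knockout and 1207, 1007 and 1326 in the wild type (0.50 ± 0.17, adjusted p = 0.353).

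The kinases of the receptors lay near wild type, with Jak1 at -0.20 ± 0.11, Jak2 at 0.12 ± 0.14 and Tyk2 at -0.040 ± 0.25. Jak1 read 6861, 7351 and 7960 in the knockout and 8307, 9120 and 8037 in the wild type, and its groups did not overlap. The feedback inhibitor Socs3 was at -0.36 ± 0.68, and 1 array of each group stood far above the rest, at 4561 in knockout replicate 2 and 7544 in wild-type replicate 3. Socs1 was dim. Of the interferon genes themselves, 4 had a probe set of their own. Ifna2 was above background on all 6 arrays and read 1569, 1854 and 1361 in the knockout and 1108, 995 and 1543 in the wild type, a difference of 0.40 ± 0.21 (unadjusted p = 0.0808, adjusted p = 0.576) with overlapping groups. Ifna1 was also above background on all 6 arrays, at -0.25 ± 0.39 (adjusted p = 0.866). Interferon alpha genes are near-identical copies, so which copy each probe set reports is uncertain. Ifnb1 and Ifng were dim, with 1 of 3 and 0 of 3 knockout arrays above background and 2 of 3 and 1 of 3 wild-type arrays.

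Lower values occurred both with and without a promoter element. In windows of 300 bases, from 250 before to 50 after the annotated start, 39 of the 45 genes had a RefSeq promoter, and 17 of these held the response element core on either strand (43.6%, against 3.99% of 27025 genes). Of the tested interferon genes, 8 of 13 with the element were lower, with a median difference of -0.18. Without it 12 of 18 were lower, with a median of -0.15. Over all 250 tested genes with the element, 47.2% were lower and the median was 0.018. TTCNNNGAA, which reads the same on both strands, was in 15 of 39 (38.5%, against 9.55%). Of the tested interferon genes, 9 of 13 with it and 11 of 18 without it were lower. Over all 539 tested genes with it, 52.7% were lower and the median was -0.014. In Bst2 the matches to the 2 patterns overlap. Ifit3 and Ifit1 hold the same 2 letter strings, TTTCACTTTC and TTTCAGTTTC, in the stretches given above, and stood at -0.55 and 0.11. A match is a match of letters only, and no binding was measured.

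The precision of 3 against 3 arrays limits what the comparison can show. By the brightest probe set, the 95% interval of 30 of the 34 tested genes lay inside a 2-fold change in either direction (82.6% of all genes). For 10 it lay inside a 1.5-fold change (49.5%). Isg20, Oas1a, Oasl1 and Ifi27l2a are the genes whose interval reached 2-fold by that probe set. These counts do not cover the other tested probe sets, such as those of Stat2 at 0.71 ± 0.32 and of Irf3 at -0.68 ± 0.39.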

How the data were processed

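The deposited table holds 1 linear intensity per probe set and array. GCOS 1.2 is the software named in the submitters' processing notes, and per the labels' protocols biotinylated cRNA was made from DNase-treated total RNA. The mean left after trimming 2% at each end was 2501.32 to 2501.42 on every array, so the authors had scaled the arrays before deposit. Detection calls, genome build and scaling rule are not given in the sources used here.

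Of 22690 probe sets, 64 controls were left out. The platform annotation gave 20380 probe sets 1 gene, 691 several and 1555 none, and all symbols with a RefSeq gene ID (GRCm38.p6) were current. For the tests, 16 was added to each intensity before log2 was taken, and limma 3.58.1 was run in R 4.3.3 (lmFit, eBayes with trend, all 6 arrays, no covariate) over the 13576 probe sets in the upper 60% by mean, with Benjamini-Hochberg over them. Intervals are those of the moderated fit. Genes were taken by their brightest probe set. All measured members are named, with other pathway genes at an unadjusted p under 0.05 and core signalling genes. The members and lists were chosen with earlier results of these data known; Tmem173 was matched as Sting1 after the annotation was seen. Alternatives were the pseudocount, normalization, filter, trend, replicate block, mean over probe sets, and each array left out. The scripts were first run on simulated data with known changes.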

Additional observations from a re-analysis of the deposited data

How the results depend on the processing

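No interferon gene passed the adjusted threshold under any of the 16 alternatives run, and the median difference of the tested genes stayed below 0, between -0.13 (quantile normalization) and -0.21. With 1 array left out it ran from -0.21 to -0.15. The number of interferon genes lower at an unadjusted p under 0.05 (limma) then ran from 2 to 5, beside 6 with all arrays. The share of all genes lower by that rule ran from 3.91% to 6.66%, beside 5.69% with all arrays. These genes were not always among the same 6: without wild-type replicate 1 they included Irf1 and Irf2. Without knockout replicate 1, Ifngr1 was higher at an unadjusted p of 0.0476 (limma). Over the whole array 51 probe sets passed, and this count was 85 with a pseudocount 16 times as large, 7 without the intensity trend, and between 21 and 57 with 1 array left out. With the replicate number as a block it was 27. The interferon genes then kept a count of 6 lower at an unadjusted p under 0.05 (limma), beside 4.64% of all genes. Same-numbered knockout and wild-type arrays did not deviate together (correlations of -0.059, -0.060 and -0.065), so the numbers were not taken to pair animals. Averaging all probe sets of a gene turned the sign of Ifnar2 (0.53), Stat2 (0.32), Irf8 (-0.075) and Rsad2 (0.018); the probe sets of these genes differ in sign. Leaving out 1 array turned the sign of 10 genes in at least 1 case. Their differences ran from -0.12 to 0.061 for Ifnar2, -0.16 to 0.059 for Stat2, -0.40 to 0.0056 for Irf7, -0.33 to 0.037 for Eif2ak2, -0.16 to 0.49 for Ifit1, -0.15 to 0.023 for Trim25, -0.27 to 0.12 for Gbp3, -0.062 to 0.10 for Irgm1, -0.33 to 0.29 for Ifi47 and -0.024 to 0.35 for Psmb9. The larger pseudocount left 33 of the genes among those tested, and the upper 40% of probe sets left 23.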
